A study of Homo sapiens with 8 samples.

Results

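In HEK293T cells, 235 of 1306 ZNF676 binding regions lay at bidirectional promoters and had no matching region in H1 cells. They were chosen by the peak lists themselves and by gene annotation. Overlapping peaks of the 3 HEK293T lists were merged, a region needed a peak in at least 2 lists, and regions that overlapped an H1 region built the same way were dropped, which left 838. A region was then kept when it overlapped the 1 kb windows around transcription start sites (TSSs) of both the plus and the minus strand, over all gene types of GENCODE release 44 lifted to GRCh37. Of the other HEK293T-only regions, 329 touched TSS windows of one strand only and 274 touched none. Absence from H1, presence in at least 2 HEK293T lists and position at TSSs of both strands were therefore set by the choice and are described with no test.

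ZNF676 was measured by ChIP-seq, in which protein-bound chromatin is precipitated and sequenced. HEK293T, a human embryonic kidney line, was transduced with ZNF676-3HA in the doxycycline-inducible lentiviral vector pTRE-3HA-puro, selected with puromycin and treated with doxycycline. H1, a human embryonic stem cell line, carried ZNF676-3HA in pRRL-IRES-Blast and was selected with blasticidin. Each line gave 3 immunoprecipitations with an anti-HA antibody, described as biological triplicates, and 1 input. Both lines overexpressed a codon-optimized, tagged protein, so the lists do not describe the endogenous protein. Cells carrying HA-tagged LacZ, which the methods also mention, were not analysed here. PCR duplicates were removed in H1 and not in HEK293T, so cell line, vector and duplicate removal cannot be told apart. The HEK293T lists held 1711, 1432 and 1257 peaks in replicates 1, 2 and 3, and the H1 lists held 637, 576 and 495. The study's methods give a target depth of sequencing per sample, but the lists do not hold the reads left in each library after filtering.

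A bidirectional promoter serves a pair of genes that start close together and are transcribed in opposite directions. Such promoters are mostly rich in CpG dinucleotides, and many of them drive housekeeping genes or pair a protein-coding gene with a divergent non-coding RNA. KRAB zinc finger proteins such as ZNF676 bind DNA through arrays of zinc fingers, each contacting a few bases, and recruit the co-repressor KAP1 (TRIM28). Most are known for binding transposable elements, and the element studied with ZNF676 was LTR12C, one of the terminal repeats left by ERV9 endogenous retroviruses.

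Among 6-base words, CCTCGC differed most in its share between the bound promoters and all annotated bidirectional promoters, and it was chosen for that after the values were seen. It is shown first as it stands in the copy of LTR12C cloned for the study's reporter assay, which spans chr6:52651110-52652658 in GRCh37, and then in those of the 12 strongest promoters that held it. Each line gives 30 GRCh37 bases on the strand that reads CCTCGC, with that core in capitals and its flanks in lower case. A promoter is named by the minus-strand and then the plus-strand gene whose TSS was nearest to the region centre, and the core nearest to the centre is shown.
LTR12C element, chr6:52651153-52651182, plus strand: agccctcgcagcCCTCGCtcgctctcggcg
WDR27/C6orf120, chr6:170102223-170102252, minus strand: ccgaggccggagCCTCGCcggaggcggaag
TUBA3FP/P2RX6, chr22:21368727-21368756, plus strand: tgcgctgaggctCCTCGCctgagaggataa
ITGB3BP/PGM1, chr1:64059834-64059863, plus strand: cgcccagagcccCCTCGCatcccgcccgct
GLIDR/ENSG00000229273, chr9:41954889-41954918, plus strand: aagtacagtaacCCTCGCccgtcaagacgg
ADH5/ENSG00000246090, chr4:100010031-100010060, minus strand: ggcgccgtgcagCCTCGCcggcgagtgcac
LATS1/ENSG00000278899, chr6:150038878-150038907, plus strand: aaacctctggacCCTCGCcagcggggatgg
CFDP1/ENSG00000274220, chr16:75467444-75467473, plus strand: cgtccctgaagcCCTCGCtgggagcccgaa
TOP3A/SMCR8, chr17:18218723-18218752, plus strand: ggcgtcccgtagCCTCGCgttaagccttgt
The lines share the core by construction, and the flanks vary from line to line. The LTR12C element holds 2 cores, at its positions 47 and 56. The second is in capitals, and the first stands in lower case in the flank before it. The core was present in 8 of the 12 strongest promoters and in 139 of all 235.

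The strongest region lay downstream of the start of CBY1, in a stretch with no annotated exon. CBY1 encodes a basal body protein that also binds beta-catenin, and FAM227A starts 59 bp away on the other strand. The region, chr22:39053169-39053793, began 476 bp downstream of the CBY1 TSS. The deposited scores, whole numbers given by the authors' peak calling whose scale the lists do not state, were 3421, 4086 and 3803 in HEK293T replicates 1, 2 and 3. The score was used only to rank peaks within a list, as a percentile in which 100 is the strongest, and here the mean rank was 99.2 ± 0.499 (SD, n = 3). The second region covered the starts of both WDR27 and C6orf120 (chr6:170101946-170102893) with scores of 3553, 2305 and 2268. The third, with scores of 2315, 2193 and 2263, lay at TUBA3FP, a tubulin pseudogene, and P2RX6, a subunit of ATP-gated ion channels (chr22:21368403-21369033). No library scored these 3 promoters below 2193, and replicate 1 was the highest at WDR27/C6orf120 and TUBA3FP/P2RX6 and the lowest at FAM227A/CBY1.

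The next promoters had lower scores. ITGB3BP, a centromere protein gene, and PGM1, which encodes the phosphoglucomutase that interconverts glucose 1-phosphate and glucose 6-phosphate, shared a region (chr1:64059538-64060157) with scores of 1261, 1503 and 1494. OSBPL8, a lipid transfer protein gene, had 905, 1222 and 1193. At PPP2R5A, a regulatory subunit of protein phosphatase 2A, and LINC02608 the scores were 810, 1548 and 1017. The region of PPP2R5A began 620 bp downstream of its TSS, and those of OSBPL8 and PGM1 covered the TSS. CCNT2, a cyclin of the elongation factor P-TEFb, had scores of 1099, 957 and 971. ADH5, an enzyme of formaldehyde detoxification, had 1048, 793 and 817. LATS1, a kinase of the Hippo pathway, had 757, 987 and 786, and CFDP1 had 536, 905 and 829. In these genes no library was high throughout. At TOP3A and SMCR8, which encode a DNA topoisomerase and a partner of C9orf72 in autophagy, replicate 1 stood apart with 1543 against 513 and 604.

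At the other end, the 3 weakest promoters by mean rank with a peak in all 3 libraries had low scores in all but 1 case. The magnesium transporter gene SLC41A3 had scores of 160, 89 and 85, DALRD3 with NDUFAF3 (a complex I assembly factor) had 91, 104 and 105, and COG7, a subunit of a Golgi tethering complex, had 103, 95 and 86. The exception was SLC41A3 in replicate 1, whose 160 was just above the median of 158.5 among the bidirectional promoters in that library. All 3 still held the CCTCGC core.

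**Figure D1:**
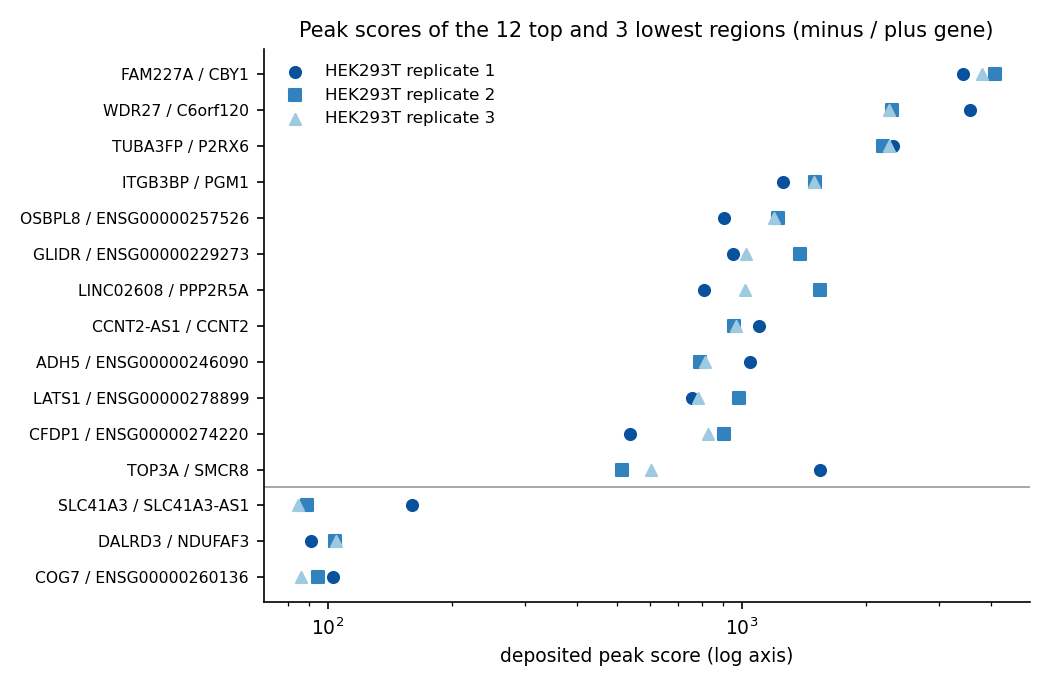
Deposited peak score (horizontal log axis) of the 12 strongest and the 3 weakest promoters with a peak in all 3 HEK293T libraries, 1 point per library. The top promoters lie between 513 and 4086 and the weakest between 85 and 160.

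Further stretches show what the strongest promoters looked like outside annotated exons. FAM227A/CBY1 is shown because it was the strongest, and ITGB3BP/PGM1 because it also had a peak in an H1 list. CFDP1 is shown because its exon-free stretch held the core more than once. Each is 200 bases of the longest exon-free part of the region, and capitals mark CCTCGC or one of 10 promoter motifs searched on both strands.
FAM227A/CBY1, chr22:39053381-39053580, plus strand: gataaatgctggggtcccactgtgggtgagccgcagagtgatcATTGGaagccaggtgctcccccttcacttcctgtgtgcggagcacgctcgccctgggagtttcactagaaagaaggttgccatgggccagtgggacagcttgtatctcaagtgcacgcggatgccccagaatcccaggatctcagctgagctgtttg
ITGB3BP/PGM1, chr1:64059887-64060086, plus strand: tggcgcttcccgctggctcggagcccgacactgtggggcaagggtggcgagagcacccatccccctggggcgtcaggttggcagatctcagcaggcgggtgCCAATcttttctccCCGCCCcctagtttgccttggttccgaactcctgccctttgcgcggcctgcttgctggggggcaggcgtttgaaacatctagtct
CFDP1/ENSG00000274220, chr16:75467421-75467620, plus strand: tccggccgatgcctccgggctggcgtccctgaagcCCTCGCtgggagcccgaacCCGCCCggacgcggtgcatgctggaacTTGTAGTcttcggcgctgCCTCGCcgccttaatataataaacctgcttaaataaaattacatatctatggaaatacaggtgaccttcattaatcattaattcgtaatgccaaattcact
In FAM227A/CBY1 the capitals mark a CCAAT box, the site of NF-Y, on the minus strand. In ITGB3BP/PGM1 they mark a CCAAT box on the plus strand and a GC box of SP1 on the minus strand. In CFDP1 they mark, in order, the core, a GC box and a ZNF143 motif on the minus strand, and the core again. GC content was 57.5%, 64.5% and 51% in the 3 stretches.

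Most of the 235 regions were of moderate or low score. In replicate 1, 208 of them had a peak, with a lowest score of 81, a median of 158.5 and a highest of 3553. In replicate 2, 216 had one, at 80, 166.5 and 4086, and in replicate 3, 181 had one, at 82, 156 and 3803. The median percentile ranks were 43.6, 44.7 and 39.9, so the median peak of this class ranked below the middle of each list. Only 3, 7 and 4 of them were in the strongest 10% of their list. Between pairs of libraries, Spearman's rho of the scores was 0.671 (replicates 1 and 2, 189 promoters), 0.651 (1 and 3, 154 promoters) and 0.780 (2 and 3, 162 promoters), a description across promoters that share libraries and were kept for having a peak in both.

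All 3 libraries had a peak at 135 of the promoters (57.4%, exact 95% binomial CI 50.9 to 63.9), and 100 were missing from 1 library. Such intervals cover counting error over regions only. Of the 100, 54 lacked replicate 3, which had the shortest list, 27 lacked replicate 1 and 19 lacked replicate 2. The share in all 3 libraries was 60.8% for one-strand promoters and 55.1% for regions away from promoters. Each share lay inside the interval of the bidirectional class. The requirement of 2 lists cut through a continuous range of scores: the median of the mean percentile ranks was 47.9 for promoters in 3 lists, 26.7 for those in 2, and 15.4 for 165 bidirectional promoter regions found in only 1 list and left out. For 1 of the 235 the farther strand's nearest TSS was over 900 bp away. The largest such distance was 977 bp among the regions kept, and the nearest region outside had one at 1016 bp.

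The annotation class was not used to score peaks, and ranks were set against those of the other HEK293T-only regions. The comparison is not independent of the rule. Of the 468 HEK293T regions dropped for overlapping an H1 region, 6 were at bidirectional promoters, and the rest came from the other classes. One-strand promoters had median ranks of 45.1, 43.9 and 37.9 in the 3 libraries, lower than the bidirectional ones in 2 of 3. The mean difference, bidirectional minus one-strand, was 0.407 ± 1.73 percentile points (SD, n = 3), with p = 0.75 in an exact two-sided sign-flip permutation test over libraries, whose smallest possible p is 0.25. Regions away from promoters had median ranks of 53.9, 43.9 and 39.0. The difference from these was -2.89 ± 6.40 points (SD, n = 3; exact permutation p = 1), with -10.3 points in replicate 1 and 0.733 and 0.875 in the other libraries. Without replicate 1 the difference was 0.118. The split between libraries depended on the H1 lists and the annotation. With any 1 H1 list left out the difference was -6.62, -5.98 or -4.07 points, and with protein-coding TSSs only it was -5.22, each with the same sign in 3 of 3 libraries (exact permutation p = 0.25, the smallest possible). With the members as chosen here, neither mean difference was larger than its SD over libraries.

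Median peak width was higher at bidirectional than at one-strand promoters in each library. It was 357, 283 and 265 bp in the 3 libraries, against 333, 264 and 243 bp. The difference was 21.7 ± 2.52 bp (SD, n = 3), and against regions away from promoters it was 35.8 ± 4.54 bp (SD, n = 3). A wider region reaches more TSS windows, so the rule itself favours width, and these values are a description with no test.

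The share of peaks at bidirectional promoters differed along each HEK293T list and between the cell lines, and both are descriptions because the rule used these lists. Whole HEK293T lists had 279, 300 and 211 such peaks, or 16.3%, 20.9% and 16.8%. The H1 lists had 5, 10 and 8, or 0.785%, 1.74% and 1.62%. In the strongest 20% of the HEK293T lists the share was 4.09%, 8.74% and 6.37%, and in the weakest 20% it was 23.6%, 29.3% and 24.2%. No 20% step of an H1 list was above 4.04%. The lists differ in length, so the 495 strongest peaks of each were also taken, which was the length of the shortest list. The shares then were 5.66%, 11.3% and 8.69% in HEK293T and 1.01%, 1.62% and 1.62% in H1. The HEK293T libraries remained above those of H1, at 28, 56 and 43 peaks against 5, 8 and 8. At equal list length the same rule kept 36 regions instead of 235.

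**Figure D2:**
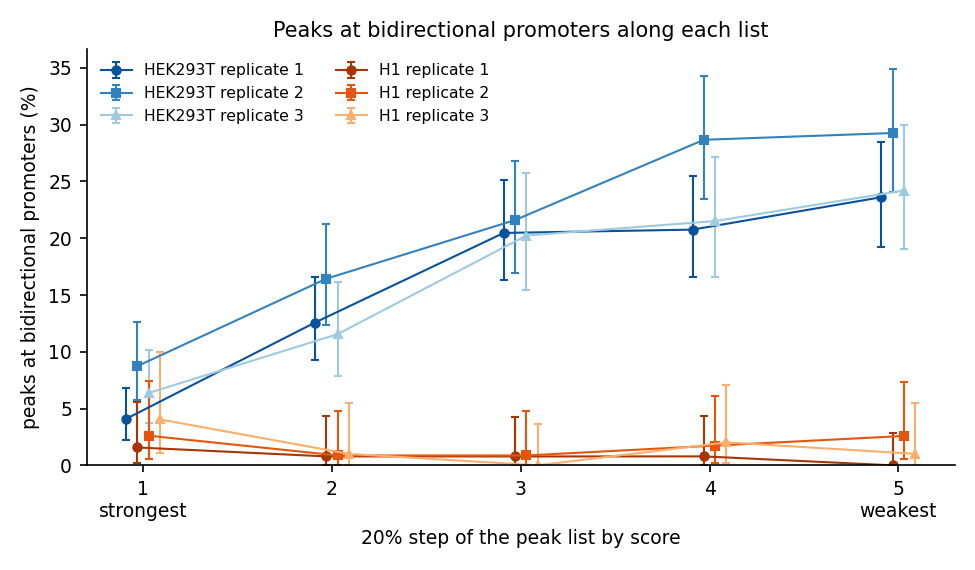
Share of peaks at bidirectional promoters (vertical axis, %) in each 20% step of a peak list from the strongest to the weakest by score, for the 3 HEK293T and 3 H1 lists. Bars are exact 95% binomial intervals. HEK293T shares run from 4.09% in the strongest step of replicate 1 to 29.3% in the weakest of replicate 2, and H1 shares stay at or below 4.04%.

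H1 was not wholly empty at these promoters. Peaks of a single H1 list overlapped 3 of the 235, which the rule allowed, and 232 overlapped none. FAM227A/CBY1 had a peak with a score of 253 in H1 replicate 2, ITGB3BP/PGM1 one of 238 in H1 replicate 3, and SMG6/SRR one of 114 in H1 replicate 2. SRR encodes serine racemase and SMG6 an endonuclease of nonsense-mediated decay, and this promoter had HEK293T scores of 797, 750 and 405. The first and the second of these were also among the 12 strongest in HEK293T. Another 6 bidirectional promoter regions of HEK293T were dropped for overlapping an H1 region, at MAP4K3, UFSP2/C4orf47, P2RX6P/LRRC74B, NFE2L1, CCNG1 and PARP16. Their mean percentile ranks in HEK293T ran from 79.8 to 99.98.

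Next, the arrangement of the gene pairs was examined. In 165 of 235 regions (70.2%, exact 95% CI 63.9 to 76.0) the nearest starts were head to head, with the minus-strand start to the left of the plus-strand start, and in 70 the transcripts overlapped at their starts. Any head-to-head pair within 1 kb was present in 199 (84.7%). These shares were not computed for all annotated bidirectional promoters, so a difference from the annotation was not tested. The head-to-head gap had a median of 204 bp and quartiles of 95.5 and 366 bp. The region centre was between the starts in 57 of 165 (34.5%), and 66 of 165 regions (40%) were wide enough to cover both starts. No baseline for these shares was computed, so they do not show whether the gap was preferred or avoided. Over all 235, both nearest starts were inside the region in 90, 1 of them in 93 and neither in 52.

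Centres lay close to a start and more often downstream of it. The median distance to the nearest TSS was 71.5 bp, against 120.5 bp at one-strand promoters. The centre was downstream of that TSS, inside the transcribed unit, in 60% of bidirectional and 51.1% of one-strand promoters. Bidirectional promoters have starts of both strands that can be the nearest, so the rule itself favours a short distance. The rule may also affect the downstream share, and both comparisons are descriptions with no test. In all, 213 regions (90.6%) overlapped an annotated exon, 170 a UTR and 82 coding sequence. Exons begin at TSSs, so the rule itself favours these overlaps, and no baseline for them was computed. Head-to-head and overlapping pairs had similar strength, with medians of the mean rank of 36.7 and 38.3.

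**Figure D3:**
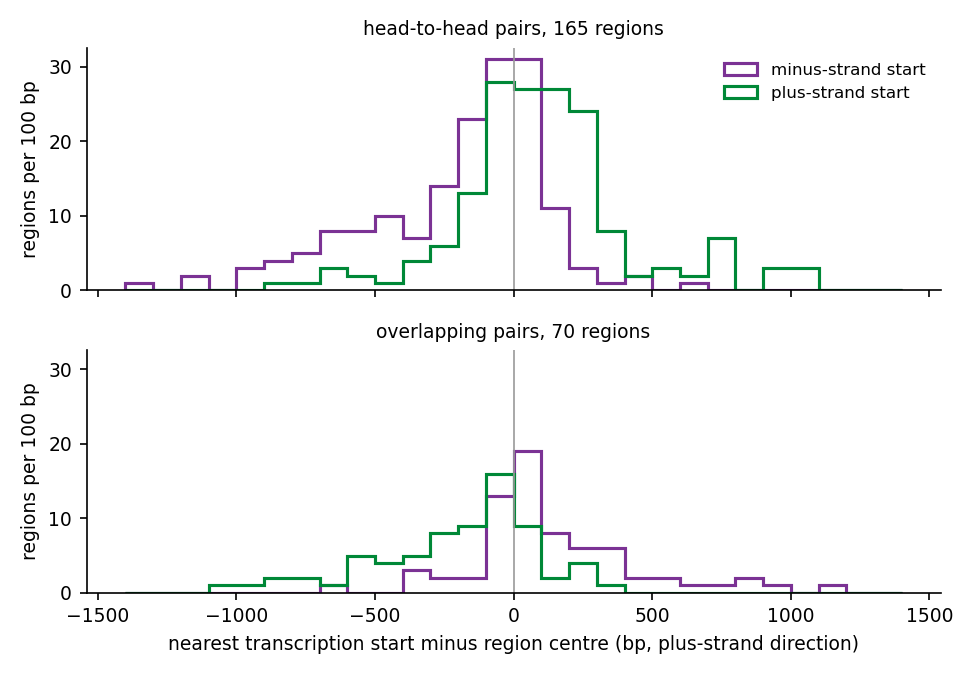
Position of the nearest minus-strand and plus-strand TSS relative to the region centre (bp, read along the plus strand), as the number of regions per 100 bp, for 165 head-to-head and 70 overlapping pairs. In head-to-head pairs the median plus-strand start is 91.5 bp to the right of the centre and the median minus-strand start 112 bp to the left, and both distributions straddle the centre.

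The pairs were mostly a protein-coding gene with a long non-coding RNA (lncRNA), in 132 of 235 (56.2%), while 84 (35.7%) paired 2 protein-coding genes, 7 paired 2 lncRNAs and 12 held other types. Pairs of protein-coding genes were head to head in 81.0% with a median gap of 183 bp, and coding and lncRNA pairs in 64.4% with 241 bp. The median of the mean rank was 35.9 in the former and 36.7 in the latter. Shares of these pair types were not computed for all annotated bidirectional promoters, so a difference from the annotation was not tested. In all, 484 genes had a TSS window at one of the regions, of which 319 were protein-coding and 151 lncRNAs. Among the lncRNAs, 25 were named as divergent transcripts, 28 as antisense transcripts, and 84 had an Ensembl identifier only.

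The annotation holds 9131 loci where TSS windows of both strands overlap, and 232 of them (2.54%) overlapped one of the regions. Of 8307 protein-coding genes with a TSS of the other strand within 2 kb, 319 (3.84%) were at one. Gene lists chosen by symbol were read against that 3.84%, with no test. Of 256 zinc finger genes, the family to which ZNF676 belongs, 16 (6.25%) were at a region. They were not 16 separate regions, because ZSCAN32/ZNF174, ZNF571/ZNF540, ZNF514/ZNF2 and ZNF585B/ZNF383 each shared one. The strongest were ZBTB10, with no peak in replicate 1 and scores of 396 and 419 in replicates 2 and 3, and the divergent pair ZSCAN32/ZNF174 with 273, 447 and 144. ZNF892 had 155, 334 and 145 and the pair ZNF571/ZNF540 had 144, 195 and 177. Replicate 2 was the highest in these 3, and all were far below the strongest promoters.

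Histone genes had 6 of 46 (13%), the highest share of the 12 lists, but they were few loci. Histone genes lie in clusters and often start head to head. H2AC20, H2AC21 and H2BC21 shared 2 neighbouring regions whose sequences were 91.7% identical over 254 bases. Some reads there may be hard to place, which was not tested. Those regions scored 209 and 182 (H2AC21/BOLA1) and 123 and 114 (H2BC21/H2AC20) in replicates 2 and 3 and had no peak in replicate 1. H2AC25/H2BC26 had 107, 146 and 85, and H2BC5 had 185 and 105 in replicates 2 and 3 with none in replicate 1. No library scored any of the 4 regions above 209, and 3 of the 4 were absent from replicate 1.

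Shares of energy and protein turnover genes lay on either side of the 3.84% of all genes, and each rested on few genes. The respiratory chain list had 4 of 65 (6.15%): NDUFC1, NDUFA1 and NDUFAF3 of complex I and ATP5PD of the ATP synthase. NDUFC1/NAA15 was the strongest of these with 346, 286 and 268, and RNF113A/NDUFA1 the only one on the X chromosome, with 81 and 143 in replicates 1 and 3. Cytosolic ribosomal proteins had 1 of 51 (1.96%), RPL27, with 139, 272 and 256. Mitochondrial ribosomal proteins had 0 of 42. An approximate upper limit, taken as 3 counts of 42, was 7.14%. The proteasome had 1 of 27 (3.70%), PSMA7, with scores of 137 and 95 in replicates 1 and 2. Chaperones had 3 of 61 (4.92%) at a single promoter. This is HSPD1/HSPE1, the well-known bidirectional promoter of the mitochondrial chaperonins Hsp60 and Hsp10, with starts 16 bp apart and scores of 211, 164 and 95. The third gene counted there, HSPE1-MOB4, is a readthrough of HSPE1.

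Genes of RNA and DNA metabolism were also present in small numbers. Splicing factors had 3 of 50 (6%). PRPF19 had 505, 513 and 342, HNRNPK, which faces the DNA repair gene RMI1, had 285, 274 and 233, and SRSF9 had 99 and 110 in replicates 1 and 2. DNA repair had 2 of 55 (3.64%), the stronger of which was RAD50, of the MRN complex, with 459, 310 and 222. DNA replication had 2 of 33 (6.06%), MCM9 and WDHD1. Cilium genes, a process the study followed, had 2 of 71 (2.82%): the axonemal dynein intermediate chain gene DNAI4, with 132, 185 and 114, and BBS9 of the BBSome, with 153 and 114 in replicates 2 and 3. CBY1, whose product acts at the base of cilia, was not in that list, and RMI1 was not in the DNA repair list. The lists were chosen by symbol and are incomplete, so their shares do not describe all genes of a process.

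LTR12C-like sequence was almost absent from these promoters. A region was called LTR12C-like when at least 100 of its bases aligned to the cloned element. Only 1 of 235 was (0.426%, exact 95% CI 0.0108 to 2.35), against 7 of 329 one-strand promoters (2.13%), 104 of 274 regions away from promoters (38.0%) and 428 of 468 HEK293T regions shared with H1 (91.5%). The 1 was GUSBP2/LINC00240 (chr6:26923768-26924086), with 263 aligned bases and scores of 188, 123 and 222. The interval of the bidirectional class includes the share of one-strand promoters, so the 2 promoter classes were not told apart, while both were far below the other 2 classes.

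Copies of other kinds were found among the members. The promoters of chromosome 9, at GLIDR, FAM88E and LERFS/FAM88B, were 96.6% to 97.8% identical to one another over 325 to 415 bases. Their scores were 950, 1382 and 1023 at GLIDR, 437, 793 and 669 at FAM88E, and 371, 346 and 555 at LERFS/FAM88B. Reads that match several such copies are hard to place, and poorly placed reads were removed by the authors, so these 3 values are uncertain and the 3 are not independent.

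The CCTCGC core was then compared in windows of 300 bp about the region centre. It was in 124 of 235 bidirectional promoters (52.8%, exact 95% CI 46.2 to 59.3) and 174 of 329 one-strand promoters (52.9%). It was in 43.8% of the regions away from promoters and in 67.1% of those shared with H1. All annotated bidirectional promoters, as 8881 windows placed midway between facing or overlapping starts, had it in 26.6%, and those with a protein-coding gene in 28.6%. The word was picked for this difference and carries no test.

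**Figure D4:**
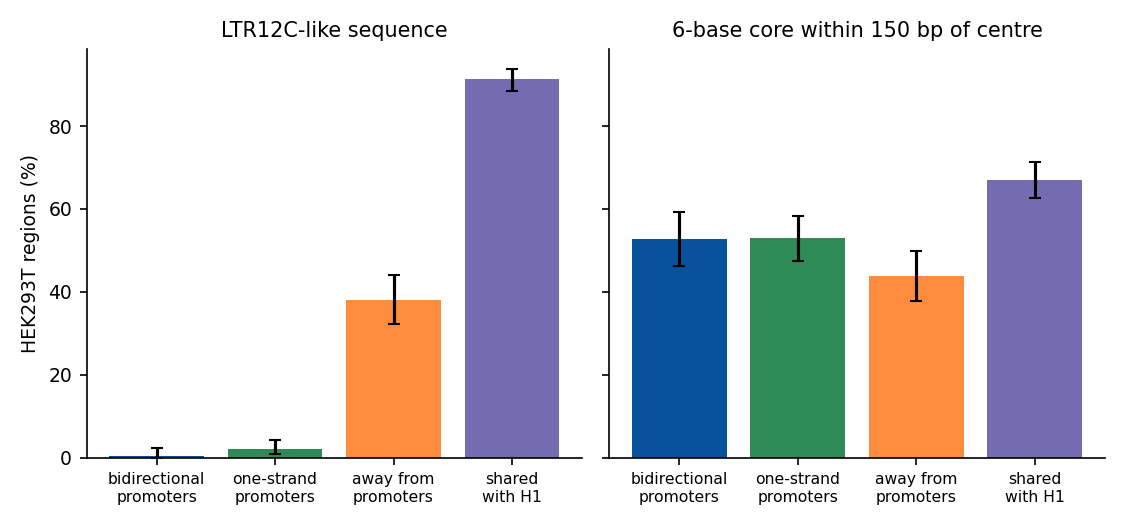
Share of HEK293T regions (vertical axis, %) that were LTR12C-like (left) and that held the 6-base core within 150 bp of the centre (right), for HEK293T-only regions at bidirectional promoters, at one-strand promoters and away from promoters, and for regions shared with H1. Bars carry exact 95% binomial intervals. LTR12C-like shares run from 0.426% to 91.5%, and core shares only from 43.8% to 67.1%.

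The core gathered at the middle of the bound regions. Within 100 bp of the centre there were 13.9 occurrences per 100 regions in each 50 bp, and at 300 to 500 bp there were 4.57, a ratio of 3.05. One-strand promoters had nearly the same profile, with a ratio of 3.20. All annotated bidirectional promoters had 5.99 and 4.63, a ratio of 1.29. The word was picked for its excess in the 300 bp about the bound bidirectional centres. That choice itself favours a high ratio there, and the ratios carry no test. Mean GC content fell outward in both, from 65.3% to 57.1% around the bound centres and from 61.5% to 57.3% around the annotated ones. In regions shared with H1 the profile was narrower and higher, with 36.3 occurrences per 100 regions in the 50 bp to the right of the centre against 17.0 at the bound bidirectional promoters. The core nearest to the centre was a median of 51.5 bp away in the 139 members that had one.

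**Figure D5:**
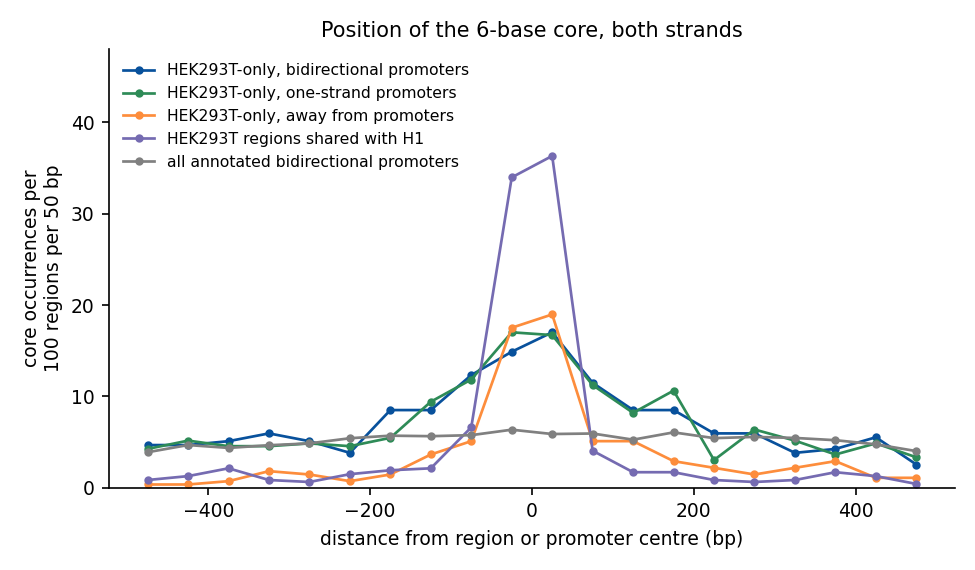
Occurrences of the 6-base core on either strand (vertical axis, per 100 regions in each 50 bp) against distance from the region centre, for the 4 classes of HEK293T regions and for all annotated bidirectional promoters about their midpoint. Bound bidirectional promoters peak at 17.0 near the centre, regions shared with H1 at 36.3, and annotated bidirectional promoters stay between 3.90 and 6.36.

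Shares of some 8-base words that hold the core differed between promoters and regions shared with H1. Among 8-base words, the largest difference between bound and all annotated bidirectional promoters was for CCCTCGCC, at 17.9% against 5.01%. One-strand promoters had it in 15.2%, but regions shared with H1 only in 2.35%. GCCCTCGC followed, at 12.3% of bound bidirectional promoters against 3.43% of annotated ones. That form, which stands in the cloned element, was in 60.5% of regions shared with H1 and in 25.9% of the regions away from promoters. ACCCTCGC came next, at 10.2% against 1.51%, and it was in 2.35% of regions shared with H1. Among these words, the promoters had the core with several flanks, and most regions shared with H1 held GCCCTCGC. The words were picked for their excess at the bound bidirectional promoters, and none were picked from the regions shared with H1. That choice itself favours flanks found at the promoters, so the shares are a description with no test.

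Presence of the core in the 300 bp windows did not go with a higher median rank. Promoters with it had median ranks of 43.1, 44.7 and 39.6 in the 3 libraries, and those without it 44.7, 44.9 and 39.9. The differences, -1.62, -0.244 and -0.318 points, had one sign and were small against the range of the members. By arrangement, the core was in 53.9% of head-to-head and 50% of overlapping pairs. Over whole regions it was in 59.1% of the 235. It was in 64.8% of the 71 left with the strongest 50% of each list and in 66.7% of the 36 left with lists of equal size.

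General promoter motifs were searched in the same windows on both strands, as exact words of which none contains another. GGGCGG, the GC box of SP1, was in 60.4% of bound bidirectional, 61.4% of one-strand and 52.5% of all annotated bidirectional promoters. CCAAT was in 26.0%, 25.5% and 30.8%. Over whole regions it was in 30.6% of the 235, and in 47.9% of the 71 that were left with the strongest 50% of each list. CCGGAAG, an ETS motif common in housekeeping promoters, was in 41 of 235 (17.4%, exact 95% CI 12.8 to 22.9), against 9.12% of one-strand and 12.2% of annotated bidirectional promoters, or 13.3% of annotated ones with a protein-coding gene. ACTACAA of ZNF143 was in 14 of 235 (5.96%, exact 95% CI 3.29 to 9.79), against 2.13% and 2.76%. The ETS interval includes the 13.3% and lies above the 9.12% and the 12.2%. The ZNF143 interval lies above the shares it is set against. However, 10 motifs were searched, and the intervals cover counting error only.

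The remaining motifs were rare or close to the annotated promoters. TATAAA was in 2.98% of bound bidirectional promoters, 4.56% of one-strand and 6.49% of annotated ones. CACGTG, the E-box, was in 10.2%, 8.21% and 7.35%. GCATGCGC of NRF1 was in 4.68%, 5.47% and 3.38%, AAGATGGC of YY1 in 3.40%, 3.04% and 3.22%, TTTCCCGC of E2F in 2.13%, 1.22% and 1.77%, and TGACGTCA, the cyclic AMP response element, in 1.28%, 2.13% and 1.94%. Promoters with the ETS motif had median ranks of 42.3, 45.1 and 28.9, and those without 43.6, 44.7 and 43.3, so only replicate 3 differed by more than 2 points.

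Base composition was that of CpG-rich promoters. Median GC content in the windows was 65.3% (quartiles 61.7 and 69.0), against 65.0% at one-strand promoters, 56.7% away from promoters, 58.7% in regions shared with H1 and 62.7% in all annotated bidirectional promoters. The observed to expected ratio of CpG had a median of 0.832, against 0.806, 0.411, 0.399 and 0.745 in the same order.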

How the data were processed

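ZNF676 was measured by ChIP-seq in 6 immunoprecipitated libraries, 3 of HEK293T and 3 of H1. According to the submitters' processing notes and the study's methods, the authors mapped reads to hg19 with Bowtie2, marked and removed duplicates with Picard and samtools in H1 only, removed poorly mapping reads and blacklisted or high-input regions, and called peaks with MACS2 per library against the input of the cell line. The deposited lists give positions, names and the authors' score, a whole number whose scale is not stated, and no read depth. The inputs were not analysed here. The 6108 peaks fitted GRCh37, with 0 beyond a chromosome end, and positions are 1-based.

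Peaks that overlapped by at least 1 bp were merged. Percentile ranks were taken within each list, and a region was given its strongest peak per library. Two-sided exact sign-flip permutation tests of ranks used the 3 HEK293T libraries as units. Such a test was also planned for peak width and is not reported, because the rule for members depends on width. Intervals of shares are Clopper-Pearson, and only the limit for 0 of 42 was taken as 3 counts of 42. Windows for motifs and GC content were 300 bp. The LTR12C element was located by the study's primers, each matched exactly, with the cloning overhang left off, and aligned with blastn (E-value at most 1e-10 for a search space of genome size, at least 100 bases). Similar members were those aligned over at least 100 bases at 90% identity or more. Region building was tested with simulated lists, where 100% of 390 regions were recovered, and gave the same regions as bedtools.

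Named promoters were the 12 highest and 3 lowest by mean rank among those in all 3 libraries, up to 4 per gene list, those with an H1 peak (up to 5) and those that were LTR12C-like (up to 5). Results for some genes of these lists are not reported here. Members, gene lists and motifs were chosen with earlier results of these data known. For the 12 strongest, the longest exon-free stretch was taken, at most 200 and at least 60 bases, and only a few were printed. The alternatives are given with their effects in the closing section. The tools were Python 3.11.15, scipy 1.17.1, pysam 0.24.0, matplotlib 3.10.9, blastn 2.17.0 and bedtools 2.31.1.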

Additional observations from a re-analysis of the deposited data

How the results depend on the processing

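The number of promoters depended on the peaks that entered. It was 71 with the strongest 50% of each list and 36 with lists of equal size. It was 135 when a peak in all 3 HEK293T libraries was required and 86 with protein-coding TSSs only, both smaller by construction. For the 71 and the 36, the H1 lists were cut by the same rule, which can also spare regions from being dropped. Leaving out 1 library gave 154 (without HEK293T replicate 2) to 237 promoters. The rank difference from one-strand promoters had no stable sign. It was 4.21 with lists of equal size, -0.0652 with the strongest 50% of each list, -0.686 with a peak in all 3 libraries, -0.261 with a 500 bp TSS window, -3.00 with protein-coding TSSs only, -0.158 with means in place of medians, and from -0.365 (without HEK293T replicate 3) to 2.92 (without HEK293T replicate 1) with 1 library left out. The difference from regions away from promoters was 4.73 with lists of equal size and ran from -6.62 (without H1 replicate 1) to 0.118 (without HEK293T replicate 1). The cause was not tested. The difference in peak width, which the rule favours, ran from 16.9 bp with means to 50.8 bp with lists of equal size. The LTR12C-like share was 0 with the strongest 50% of each list, lists of equal size, a 500 bp window or protein-coding TSSs only, since the 1 such region was lost, and 0.422% to 0.649% with 1 library left out. Bidirectional promoters, 235 of 838 HEK293T-only regions in the report, made up 16.8% of such regions with the strongest 50% of each list, 24.7% with lists of equal size, 23.5% with a 500 bp window and 10.3% with protein-coding TSSs only. The head-to-head share was 61.1% with lists of equal size and 81.4% with protein-coding TSSs only. The share in all 3 libraries was 71.8% with the strongest 50% of each list. In those and in lists of equal size, over whole regions, median GC content was 64.3% and 63.2% against 65.4%, and the share with CCAAT 47.9% and 38.9% against 30.6%. The share with CCTCGC over whole regions was 66.7% with lists of equal size against 59.1%. Of 135 recomputed values, 105 kept their sign (rank and width differences), stayed within 1.5 times the reported number (promoters) or lay inside its 95% interval (shares and GC content). The alternatives for peak width and for the CCTCGC core were chosen after seeing the data. The share in all 3 libraries could not be recomputed where only 2 HEK293T lists were left or all 3 were required. No paired analysis was possible because no test compared the cell lines, whose replicate numbers are all that the labels share, and within HEK293T each test already took differences within a library. With 3 libraries the exact permutation test cannot give p below 0.25, so these tests say nothing about stability. The lists hold no signal outside peaks, so promoters just below the calling threshold cannot be told from unbound ones.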
